A study of Mus musculus with 4 samples.

Results

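Hal, Uroc1, Amdhd1, Ftcd, Tat, Hpd, Hgd, Fah and Tdo2 encode enzymes that break down histidine, tyrosine and tryptophan in the liver. The 9 genes were chosen by name, out of 20807 protein-coding genes on the autosomes, and all 9 passed the mean level of 10 CPM, a depth-scaled count, that was set for the 13891 genes used as background. Open chromatin over these genes was measured by single-cell ATAC sequencing (scATAC-Seq), in which a transposase cuts accessible DNA in nuclei that carry a droplet barcode. Nuclei came from hepatocytes of male C57BL/6J mice on a normal diet, aged 10 to 12 weeks by the labels, either without surgery (PHx 0 h) or at 48, 72 or 96 h after a partial resection of the liver (partial hepatectomy, PHx). All 4 groups shared the strain, the diet and a collagenase perfusion that enriches hepatocytes. Each time had 1 library, from 1 hepatocyte preparation at 0 h and at 48 h, and the labels and methods do not say whether animals were pooled for the later libraries. No difference between times therefore has a replicate check, no test was possible, and every interval below covers counting error only.

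Histidine is opened by histidase (Hal), which releases ammonia and leaves urocanate. Urocanase (Uroc1), imidazolonepropionase (Amdhd1) and the folate-dependent Ftcd then carry it to glutamate. Tyrosine loses its amino group to tyrosine aminotransferase (Tat), a classic glucocorticoid-induced liver enzyme, and Hpd, Hgd and Fah then convert and cleave its ring. Loss of Fah causes a hereditary tyrosinemia. Tryptophan 2,3-dioxygenase (Tdo2) starts the kynurenine route in hepatocytes. All of these genes are known for strong expression in hepatocytes.

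The deposited counts are cut sites per peak and barcode, with peaks called in each library on its own. A gene's value is the sum over every peak that overlaps its body or the 2 kb upstream (its window), over barcodes with at least 1000 counts, scaled to 1000000 counts in peaks of the library (CPM). These barcodes, called nuclei here, numbered 3977, 3892, 4256 and 3224 at 0, 48, 72 and 96 h. Their median depth fell from 26005 to 11629, 4841 and 3681.5 counts, and the length of genome under peaks was 153.6, 179.0, 141.2 and 60.9 Mb. Depth and called peak length thus moved with time, and their part in the differences below was not tested. The share of barcodes that any pair of libraries had in common was between 0.634% and 1.51% of nuclei. Hepatocyte markers, among them Alb and Apob, were detected in every library (10 of 10), with a median per kb of window between 11.02 and 18.7 CPM, against 0.222 to 0.383 CPM for 10 endothelial markers. The summed level of the hepatocyte markers was 4096, 5086, 3404 and 4913 CPM at 0, 48, 72 and 96 h, lowest at 72 h, when the endothelial (425, 436, 554 and 277 CPM) and stellate markers were highest. Of 8 Kupffer and myeloid markers, between 2 and 4 had no peak in their window, by library, and their summed level was between 248 and 330.1 CPM. Of 8 stellate markers, 1 to 3 were at 0 and the summed level was 108, 195, 248 and 180.4 CPM. Of 6 cholangiocyte markers, 0 to 3 were at 0 and the summed level ran from 46.6 to 70.1 CPM.

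The 9 promoters were all found in the RefSeq promoter table of GRCm38.p6, which holds 250 bases before and 50 bases after each start. The RefSeq start lay within 5 bp of the GENCODE start used for the windows in 7 genes, and 780 bp from it in Fah and 474 bp in Tdo2. Letters were searched on both strands for TATAAA (the TATA box, in 13.6% of 32817 promoters of that length), TGTTTAC (FOXA, 3.65%), CAAAGTCCA (HNF4A, 0.475%), GTTAAT (HNF1, 7.10%), TTGCNNAA (C/EBP, 10.8%) and ACANNNTGT (glucocorticoid receptor, 6.85%). The 4 promoters shown are a choice from the 9. Hal and Hgd had start regions that were lower at 48 h at nearly the same peak length. Ftcd is a histidine gene whose covered length was lower at 48 h, and Tat was the single gene that was higher at every time. The start regions of Uroc1 (log2 ratio -0.64) and Hpd (-0.58) were also lower at 48 h at nearly the same length, and other members also had less covered length. Capitals mark matches to any of the 6 motifs on either strand, and a match is a description of letters only. The regions are chr10:93488518-93488817 (plus strand) for Hal, chr16:37579903-37580202 (plus) for Hgd, chr10:76575398-76575697 (plus) for Ftcd and chr8:109990186-109990485 (plus) for Tat.
Hal: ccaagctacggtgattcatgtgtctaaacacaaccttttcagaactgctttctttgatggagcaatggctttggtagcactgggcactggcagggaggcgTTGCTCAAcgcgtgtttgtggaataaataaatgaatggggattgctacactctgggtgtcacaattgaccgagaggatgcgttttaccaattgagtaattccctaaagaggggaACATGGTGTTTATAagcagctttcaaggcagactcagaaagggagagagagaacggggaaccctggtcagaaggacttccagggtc
Hgd: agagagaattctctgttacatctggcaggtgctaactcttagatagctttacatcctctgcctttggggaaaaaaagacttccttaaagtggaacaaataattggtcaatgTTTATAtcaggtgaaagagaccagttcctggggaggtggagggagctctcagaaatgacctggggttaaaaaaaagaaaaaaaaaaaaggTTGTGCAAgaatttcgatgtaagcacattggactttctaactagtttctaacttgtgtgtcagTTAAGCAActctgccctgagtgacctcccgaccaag
Ftcd: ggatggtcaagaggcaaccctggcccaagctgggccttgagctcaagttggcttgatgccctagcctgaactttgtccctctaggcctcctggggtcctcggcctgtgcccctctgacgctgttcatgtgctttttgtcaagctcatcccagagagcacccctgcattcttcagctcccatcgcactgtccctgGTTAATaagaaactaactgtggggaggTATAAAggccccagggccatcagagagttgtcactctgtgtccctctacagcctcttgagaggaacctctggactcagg
Tat: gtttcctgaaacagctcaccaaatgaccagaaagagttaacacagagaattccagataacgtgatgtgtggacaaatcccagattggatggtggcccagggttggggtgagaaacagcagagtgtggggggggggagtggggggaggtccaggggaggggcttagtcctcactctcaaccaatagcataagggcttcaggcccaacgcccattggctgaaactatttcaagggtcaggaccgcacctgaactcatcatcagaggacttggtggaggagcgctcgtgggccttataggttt

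The Hal promoter held a C/EBP match 150 bases before its start, and a glucocorticoid receptor match at 36 bases that overlapped, in its last base, a TATA box read on the other strand. Ftcd had a TATA box 29 bases before its start and an HNF1 match 56 bases before it. Hgd held C/EBP matches on both sides of its start. None of the 6 motifs was found in this window of Tat, nor in those of Uroc1, Amdhd1, Hpd and Fah, which says only that these letters are not there. The Tdo2 window held TATAAA and ACANNNTGT. In all, TATAAA was in 4 of 9 member windows, ACANNNTGT and TTGCNNAA in 2 each, GTTAAT in 1, and TGTTTAC and CAAAGTCCA in 0.

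In the undamaged liver most of these genes lay under peaks almost from end to end. At 0 h, 6 of 9 members had at least 90% of their window under peaks, where 4.62% of background genes did (3.75% of the 6934 background genes with windows between 11367 and 53868 bp, the range of the members). At 48 h it was 4 of 9 (background 4.38%), at 72 h 3 of 9 (2.04%) and at 96 h 0 of 9 (0.569%). Hal, Tat, Fah and Tdo2 each had 1 peak in their window at 0 h and again at 48 h. That single peak was 39087 bp long over Hal, 34299 bp over Fah, 28755 bp over Tdo2 and 15986 bp over Tat at 0 h.

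The long single peaks over Hal, Fah and Tdo2 were called as several shorter peaks at 72 and 96 h. Within its window, Hal went from 1 peak at 0 and 48 h to 5 at 72 h and 11 at 96 h. Fah went from 1 to 1, 2 and 8 peaks, and Tdo2 from 1 to 1, 4 and 4. Uroc1 had 7, 12, 9 and 4 peaks, Amdhd1 4, 6, 9 and 3, and Ftcd 3, 5, 7 and 2, so these 3 windows held fewer peaks at 96 h than at 0 h. The Tat window met 1 peak in each of the 4 libraries, of 15986, 16388, 15799 and 11983 bp. These peaks run past the window, and over the whole region of 16388 bp there were 1, 1, 1 and 3 peaks, so at 96 h the Tat domain was also split, outside the window. At 96 h, 85.8% of the Tat window was still under its peak, while the other 8 members lay between 8.54% (Uroc1) and 68.0% (Tdo2). The median background gene had 17.5%, 20.7%, 15.7% and 7.59% of its window covered at the 4 times, so cover was also lowest at 96 h across the genome.

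**Figure D1:**
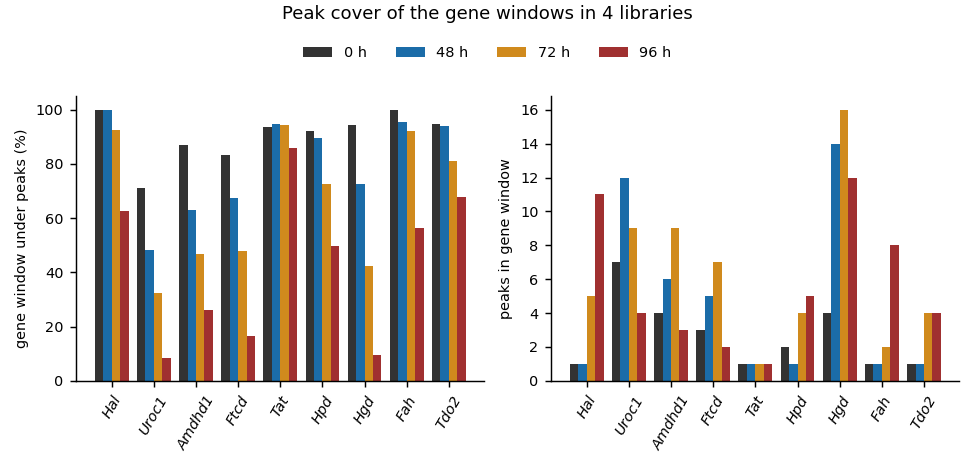
Share of each gene window under peaks (left, percent) and number of peaks in the window (right) for the 9 genes, with 1 bar per library. Cover was lower at 96 h than at 0 h in all 9 genes, and Tat had 1 peak in its window throughout.

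For levels between genes, each peak was counted only for its share of length inside the window and divided by the window length. On this scale Tat was the most accessible member in every library, at 14.2, 17.0, 18.5 and 28.9 CPM per kb. Hal came next at 0 h with 11.2 CPM per kb, followed by Tdo2 (10.1), Hpd (8.89), Fah (8.26), Amdhd1 (7.87), Ftcd (5.31), Hgd (4.18) and Uroc1 (2.88). With whole peaks counted, Amdhd1 (32.7 CPM per kb of window), which takes in the long Hal peak, would stand above Tat (21.4) at 0 h, and Tat would be first at the later times. The median background gene had 1.33, 1.29, 1.30 and 1.36 CPM per kb of window on the first scale. At 48 h the order changed below Tat: Hal (6.15) stood in rank 4 after Tdo2 (9.17) and Fah (7.21), and just above Hpd. At 96 h Hgd (1.07 CPM per kb) was below the median background gene, and Uroc1 (1.52) was close to it.

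Across the 9 genes, the summed levels after PHx were mostly below those of the undamaged liver in CPM. At 48 h, 3 of 9 members (Hal, Amdhd1 and Hgd) were at least 1.5-fold lower and 0 of 9 were higher, where 7.85% of background genes were lower and 11.9% were higher by that fold. At 72 h, 7 of 9 were lower (all but Tat and Fah; background 17.4%) and 0 were higher (17.2%). The summed hepatocyte markers were also lowest at 72 h, and in hepatocyte-like nuclei alone no member's log2 ratio differed by more than 0.032. At 96 h, 5 of 9 were lower (the 4 histidine genes and Hgd; background 17.8%) and 1 was higher (Tat; 17.4%). The members' median log2 ratio to 0 h was -0.47, -0.71 and -0.64 at 48, 72 and 96 h, and that of all genes tested was -0.06, -0.05 and 0.07. The direction was not the same on every measure. At equal depth per nucleus, given further below, Hal was again highest at 0 h and Tat at 96 h. With binarised counts, at most 1 per peak and nucleus, 1 member was higher at 48 h (background 7.96%) and 0 lower (5.09%), 4 were higher at 72 h (13.5%) and 0 lower (16.4%), and 5 were higher at 96 h (12.9%) and 4 lower (16.8%). The members' median log2 ratio was then 0.02, 0.27 and 0.85, and that of all genes -0.07, -0.10 and 0.0044. A binarised peak cannot pass 1 in a nucleus however deep it is, and median depth was highest at 0 h. Amdhd1 and Hal share 1 long peak and are not independent, so at 48 h 2 of the 3 lower genes rest mostly on the same counts.

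**Figure D2:**
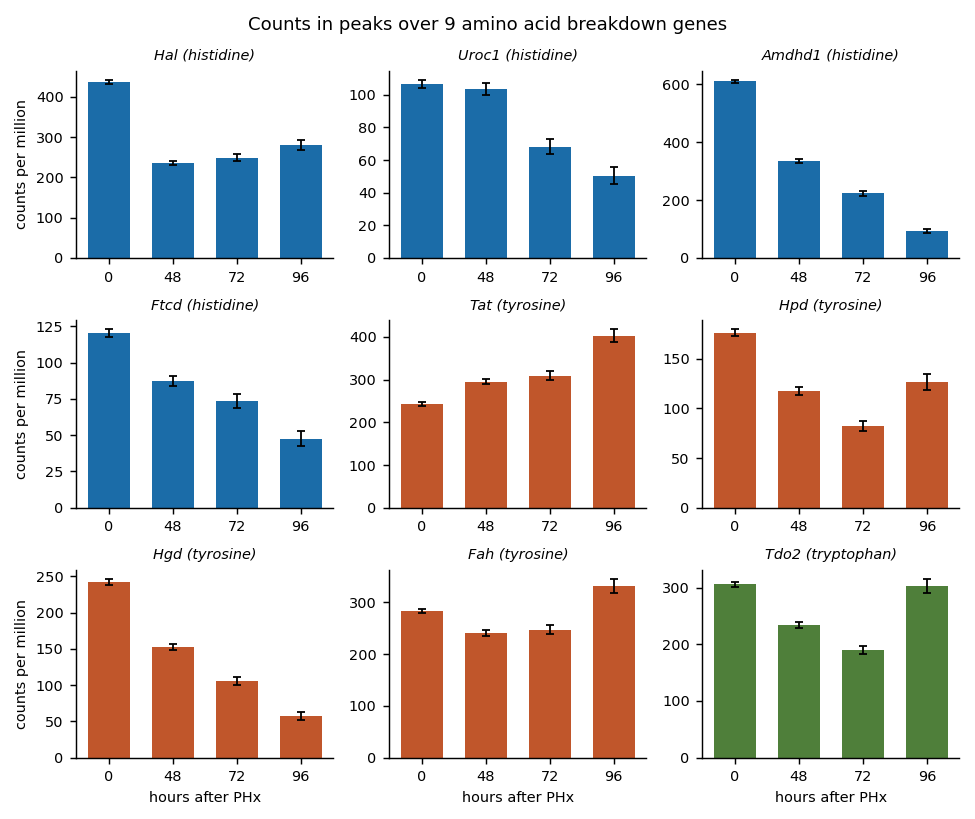
CPM in peaks over each gene (bars, 1 library per time, axis from 0) with 95% Poisson intervals for counting error. Hal, Hgd and Ftcd were highest at 0 h, and Tat was highest at 96 h.

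Hal, the first enzyme of histidine breakdown (chr10:93488768-93519304, plus strand), had 438 CPM at 0 h, 236 at 48 h, 249 at 72 h and 281 at 96 h. The 0 h library was well above the other 3, of which 96 h was the highest. Its log2 ratio to 0 h was -0.89 at 48 h (95% interval -0.93 to -0.85), -0.81 at 72 h and -0.64 at 96 h. With binarised counts it was 0.41, 1.37 and 1.78. At 48 h its peak had nearly the length of 0 h (38427 against 39087 bp), so the lower value did not come with a shorter peak. Density along the peak went from 11.2 to 6.15 CPM per kb. At 72 h, 36004 bp were still covered and the density was 6.92 CPM per kb. At 96 h the covered length was 23113 bp and the density 12.2 CPM per kb, a log2 ratio of 0.12 per kb against a median of 1.25 over all genes. Per kb and relative to that median gene, Hal stood at -0.64, -0.85 and -1.13 at the 3 later times.

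Amdhd1, the third enzyme of that route (chr10:93523338-93540033, minus strand), lies tail to tail with Hal, and the long Hal peak reaches into its window. Its values were 611 CPM at 0 h, 336 at 48 h, 223 at 72 h and 91.8 at 96 h. The shared peak supplied 71.7%, 70.2% and 68.4% of these counts at 0, 48 and 72 h, and it no longer reached the Amdhd1 window at 96 h. Without the shared peak, a setting chosen after seeing the data, Amdhd1 had 172, 100.05, 70.5 and 91.8 CPM. The corresponding log2 ratios were -0.79, -1.29 and -0.91, so the drop to 96 h was far smaller than the -2.73 with it. Counted by the share of each peak inside the window, it was -0.68 at 96 h. The peak over the Amdhd1 start also holds the start of Ccdc38, and it carried 12.2 CPM per kb at 0 h and 8.43 at 48 h.

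**Figure D3:**
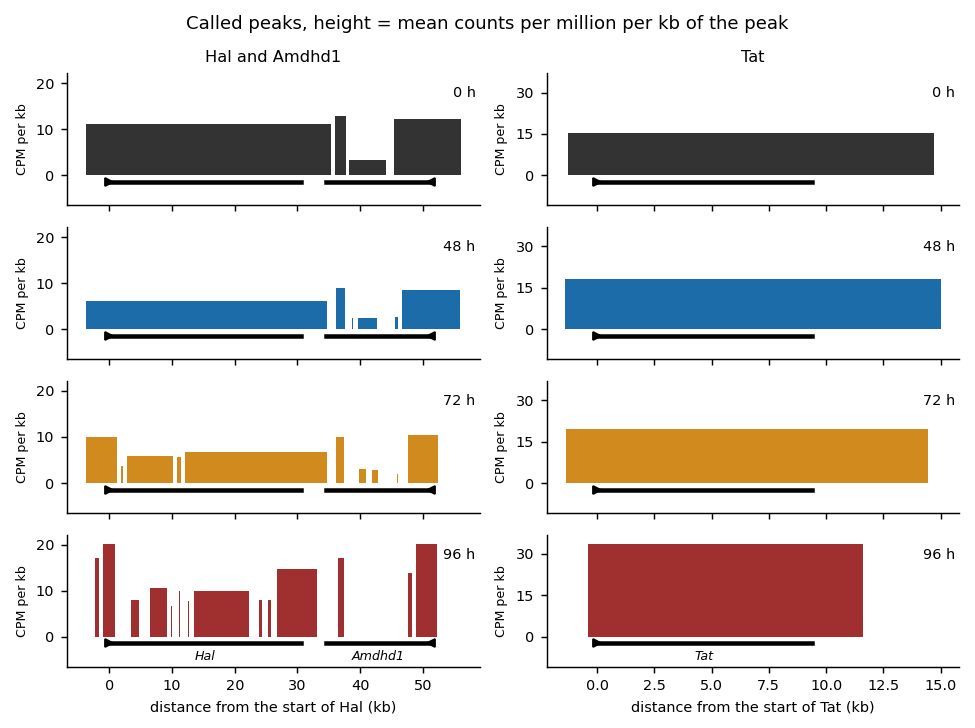
Called peaks over Hal and Amdhd1 (left) and Tat (right) against the distance from the Hal or Tat start in kb, with 1 row per library. The height of a block is the mean CPM per kb of that peak, black bars are gene bodies and arrowheads mark starts. The Hal block is about as long at 48 h as at 0 h and lower, and at 96 h 11 shorter blocks lie in the Hal window.

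Uroc1, which acts on urocanate (chr6:90333284-90364551, plus strand), had 107 CPM at 0 h, 104 at 48 h, 68.3 at 72 h and 50.4 at 96 h. The totals of 0 and 48 h did not differ beyond counting error (log2 ratio -0.04, 95% interval -0.10 to 0.02). At 48 h, however, 56.0% of its counts lay in a peak of 13336 bp that also holds the start of the neighbouring gene Zxdc. The peak over the Uroc1 start itself spanned 5609 bp and then 5310 bp, and its level went from 51.5 to 33.0 CPM, a log2 ratio of -0.64 (95% interval -0.74 to -0.54). The peak of 13336 bp also covers the end of the Uroc1 body. At 0 h that end lay under a separate peak of 8979 bp with 29.0 CPM. The pair of libraries therefore cannot be compared by leaving out the peak of 13336 bp. The whole region around it had 62.8 CPM at 0 h and 58.1 at 48 h. When each peak was counted only for its share of length inside the Uroc1 window, the log2 ratio at 48 h was -0.47.

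Ftcd, the last step of the histidine route (chr10:76575648-76590338, plus strand), had 120.4 CPM at 0 h, 87.2 at 48 h, 73.5 at 72 h and 47.6 at 96 h. Each later library was lower than the one before it. The log2 ratios were -0.47, -0.71 and -1.34, and the covered length went from 20252 to 16912, 12841 and 3416 bp. Per kb of covered peak the log2 ratios were -0.21, -0.05 and 1.23, and the covered length itself had log2 ratios of -0.26, -0.66 and -2.57. Its 1 region of near-equal length at 48 h, inside the gene, held 7.74% of its 0 h counts and had a log2 ratio of -0.09 (95% interval -0.30 to 0.11).

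Tat, which starts tyrosine breakdown (chr8:109990437-109999803, plus strand), went the other way. It had 243 CPM at 0 h, 295 at 48 h, 309 at 72 h and 403 at 96 h. The 0 h library was the lowest of the 4, and the intervals of 48 and 72 h overlap. The log2 ratios were 0.28 (95% interval 0.24 to 0.32), 0.35 (0.30 to 0.40) and 0.73 (0.67 to 0.79), and only the last was past 1.5-fold. Its single peak had near-equal length at 0, 48 and 72 h, so these first ratios compare like with like in length. At 96 h the peak was shorter and the CPM higher, at 33.6 CPM per kb against 15.2 at 0 h. Per kb and relative to the median gene, Tat stood at 0.47 and 0.21 at 48 and 72 h and at -0.11 at 96 h, so its excess at 96 h is no larger than that of the median gene on this scale.

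Hpd, the next enzyme (chr5:123171807-123182727, minus strand), had 176 CPM at 0 h, 118 at 48 h, 82.1 at 72 h and 126 at 96 h. The 72 h library was the lowest and 96 h resembled 48 h. At 48 h the log2 ratio was -0.58 (95% interval -0.64 to -0.53), just short of 1.5-fold, at a peak of 17560 bp against 17813 bp. The Hpd peak also covers the start of Psmd9, a proteasome assembly gene beside it. At 72 and 96 h, when the domain had split, the piece on the Psmd9 start held 58.3% and 66.5% of the counts, and the rest of the window had 34.2 and 42.4 CPM. The Hpd value at these times is thus mostly that of the Psmd9 end.

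Hgd, homogentisate dioxygenase (chr16:37580153-37632020, plus strand), had 242 CPM at 0 h, 152 at 48 h, 105 at 72 h and 57.5 at 96 h. Each later library was lower, with log2 ratios of -0.67, -1.20 and -2.07. Its window is the longest of the 9, and its covered length went from 55469 bp to 39954, 23478 and 5187 bp. Per kb of covered peak the log2 ratios were -0.20, 0.04 and 1.34, so the counts at 72 h were lower in step with the length. The peak over the Hgd start, at 7437 bp and 6964 bp, went from 78.4 to 49.2 CPM between 0 and 48 h, a log2 ratio of -0.67 (95% interval -0.76 to -0.59). An antisense gene, Gm46559, overlaps Hgd, and accessibility has no strand that would separate the pair.

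Fah, the last enzyme of the tyrosine route (chr7:84585159-84606722, minus strand), differed least from 0 h among the tyrosine genes at 48 and 72 h. It had 283 CPM at 0 h, 241 at 48 h, 247 at 72 h and 331 at 96 h. The values at 48 and 72 h overlap in their intervals, and 96 h was the highest. The log2 ratios were -0.23, -0.20 and 0.23, none past 1.5-fold in CPM. With binarised counts they were 0.45 and 1.39 at 48 and 72 h, and the highest setting at 96 h gave 1.98. The promoter alone gave -1.39 at 72 h and -0.97 at 96 h, at peaks of 10746 and 4291 bp against 34299 bp at 0 h. At 96 h the peak over the start alone carried 144 CPM in 4291 bp, or 33.7 CPM per kb.

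Tdo2, the first enzyme of tryptophan breakdown (chr3:81957090-81976202, minus strand), had 305 CPM at 0 h, 234 at 48 h, 189 at 72 h and 302 at 96 h. The 96 h library did not differ from 0 h beyond counting error in CPM (log2 ratio -0.02, 95% interval -0.08 to 0.05), with 18196 bp covered against 28755 bp. The log2 ratio was -0.39 at 48 h and -0.69 at 72 h. Per kb of covered peak the log2 ratios were -0.12, -0.28 and 0.64 at 48, 72 and 96 h. Relative to the median gene on that scale they were 0.10, -0.44 and -0.61.

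The promoter alone, taken as the peaks within 1 kb of the start, gave the same sums as the gene where 1 peak spans both. This held for Hal, Tat, Fah and Tdo2 at 0 and 48 h. The Hal promoter peak held 19.7% of the Hal counts at 72 h and 14.4% at 96 h, and its log2 ratio was -3.16 and -3.43. The lengths behind these ratios were 39087, 4951 and 2022 bp, so they describe the shape of the called peak and not the density at the start, which was 9.92 and 20.03 CPM per kb. The promoter peaks of Uroc1, Amdhd1, Ftcd and Hgd were called separately from the start, and at 48 h all 4 were lower, with log2 ratios of -0.64, -0.74, -0.46 and -0.67. At 72 h they were at -0.61, -1.36, -0.73 and -0.99. At 96 h they were at -0.23, -0.94, -0.17 (95% interval -0.34 to 0.0037) and -1.84, so for Uroc1 and Ftcd the promoter peak alone was not 1.5-fold lower, and it held 87.1% of the counts of each.

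Because called length differs so much, the counts were also read on other scales. Per kb of covered peak, 2 of 9 members (Hal and Amdhd1) were at least 1.5-fold lower at 48 h (background 8.89%) and 0 were higher (0.85%). At 72 h 2 of 9 were lower (Hal and Hpd; background 2.06%) and 0 higher (9.08%). At 96 h 7 of 9 were higher, against 93.2% of background genes, and 0 were lower (0.0579%), so at 96 h this scale is moved for nearly the whole genome. Hal and Hpd were the 2 members that stayed under 1.5-fold there. The other scale kept only regions with 1 peak in each library and lengths within 10% of each other. At 48 h, 7 members had such a region, and 4 of them (Hal, Amdhd1, Uroc1 and Hgd) were at least 1.5-fold lower in it, against 3.51% of 10295 background genes with such a region. None was higher (background 0.826%). Amdhd1 enters through the same region as Hal, which makes 3 separate regions. Fah and Tdo2 had none, and at 72 h Tat alone had one.

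**Figure D4:**
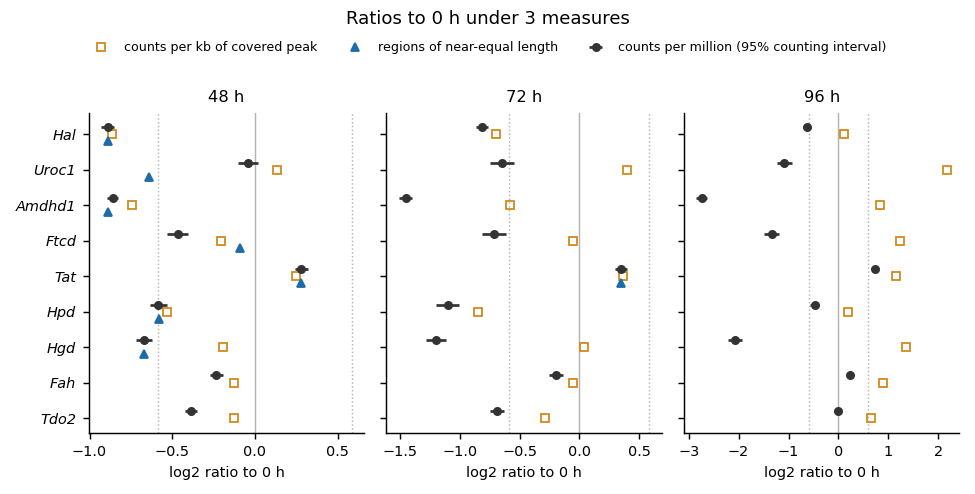
Log2 ratios to 0 h for each gene under 3 measures, in 1 panel per time, with 95% counting intervals on the CPM ratios and dotted lines at 1.5-fold. At 48 h the 3 measures lie close together for Hal, Tat and Hpd, and at 96 h the per-kb values lie to the right of the CPM values for every gene.

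The ratios were nearly the same in hepatocyte-like nuclei alone. Nuclei were clustered on 62554 regions that had a peak in every library, leaving out the regions of all genes listed here, and clusters were named from hepatocyte markers. Hepatocyte-like nuclei were 63.5%, 93.4%, 92.3% and 97.1% of all nuclei at the 4 times. Most of them sat in a cluster made up mainly of their own library, with 2520, 2756, 2810 and 3093 nuclei of 0, 48, 72 and 96 h. The class thus joins different clusters at different times. At 0 h a further 29.0% were shallow nuclei with hepatocyte markers that were given no name. In hepatocyte-like nuclei, the largest difference among the 27 ratios was 0.032 on the log2 scale (Hal at 72 h). In the unnamed nuclei of 0 h the members had log2 ratios between -0.03 and 0.32 to the hepatocyte-like nuclei of that library.

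The nuclei low in hepatocyte markers, 296, 215 and 287 at 0, 48 and 72 h, came from clusters in which endothelial or Kupffer markers were high. All 9 members had lower values in them than in hepatocyte-like nuclei, though the 95% interval of the log2 ratio reached 0 for Uroc1 at 48 h and for Ftcd, Hpd and Hgd at 72 h. Of background genes, 33.4%, 37.4% and 40.2% were lower in them at 0, 48 and 72 h. By the size of the difference, between 1.15% and 9.79% of background genes lay further down than a member at 0 h, up to 26.3% at 48 h (Uroc1) and up to 17.2% at 72 h (Hgd). At 0 h the fold ran from 2.19 (Uroc1) to 5.98 (Tat) with a median of 3.99, and the 10 hepatocyte markers had a median of 5.08 (4.92 at 48 h and 5.43 at 72 h). At 48 h it ran from 1.20 (Uroc1) to 6.60 (Tat) with a median of 3.51, and at 72 h from 1.53 (Hgd) to 6.83 (Tat) with a median of 2.05. Tat had the highest fold at each of these times, but its interval overlapped those of other members, at 48 h those of Hpd (6.38) and Tdo2 (6.33). Its values in hepatocyte-low nuclei were 40.9, 45.2 and 46.2 CPM, while Hal had 83.04, 98.3 and 128 CPM there. At 96 h there were 81 such nuclei and between 2 and 10 counts per gene, too few to describe.

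**Figure D5:**
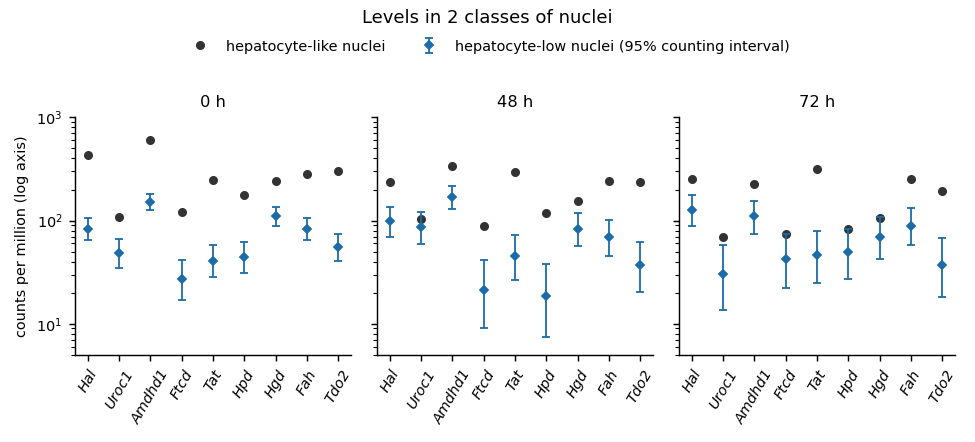
CPM in hepatocyte-like nuclei (circles) and in nuclei low in hepatocyte markers (diamonds, 95% Poisson intervals) for the 9 genes at 0, 48 and 72 h, on a log axis. The circle is above the diamond for every gene at each time, and the distance is widest for Tat.

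At an equal depth of 1000 counts per nucleus, 35.7% of hepatocyte-like nuclei had a count in Hal peaks at 0 h, 21.1% at 48 h, 19.6% at 72 h and 20.5% at 96 h. Without thinning the shares were 95.5%, 65.3%, 43.3% and 39.6%, with median depths of 40952, 12639, 5173 and 3798 counts. For Tat the thinned shares were 21.9%, 23.0%, 23.7% and 28.0%. In nuclei low in hepatocyte markers the thinned share at 0 h was 6.42% for Hal and 1.35% for Tat. As in CPM, Hal was highest at 0 h and Tat at 96 h. Among the 3 later libraries the 95% intervals of the Hal thinned share overlapped (19.8% to 22.5%, 18.4% to 20.9% and 19.1% to 21.9%). They give no order there, while its CPM was lowest at 48 h.

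Neighbouring steps of the pathways were read as lists, without the 3 genes not reported here, beside the background of 7.85%, 17.4% and 17.8% lower and 11.9%, 17.2% and 17.4% higher at 48, 72 and 96 h. Per kb of covered peak, 0 to 2 genes of each list were lower at any time, where 8.89%, 2.06% and 0.0579% of background genes were at 48, 72 and 96 h. At 96 h, 5 of 5, 8 of 10, 5 of 6, 22 of 29 and 7 of 9 genes of the lists, in the order below, were higher on that scale, where 93.2% of background genes were. Of 5 other genes of phenylalanine and tyrosine breakdown and its cofactor, 1, 2 and 1 were at least 1.5-fold lower at 48, 72 and 96 h and 0 were higher. The lowest were Pcbd1 (-0.61), which recycles the cofactor tetrahydrobiopterin, and Gstz1 (-0.44), the step between Hgd and Fah. The highest were Gchfr (-0.40), which regulates the synthesis of that cofactor, and Qdpr (-0.34), which also recycles it. The covered length of Pcbd1 went from 4528 to 2785 bp, and its log2 ratio per kb was 0.09. It was the list's single lower call at 48 h, and none was called when scaled to the median gene or to shared regions, or per kb. Pcbd1 had no region of near-equal length. The list's median log2 ratio was -0.41, -0.49 and -0.30.

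The kynurenine route after Tdo2 was split. Of 10 genes, 2, 3 and 3 were lower and 0, 1 and 1 higher, with medians of -0.01, -0.22 and -0.25. The calls at 48 h turned with the scaling: 0 genes were lower and 2 higher when scaled to the median gene or to shared regions. At 48 h the lowest were Ido2, the other dioxygenase (-0.63), and Afmid, which hydrolyses its product (-0.61). Neither reached 1.5-fold in regions of near-equal length (-0.28 and 0.07). The highest were Kynu (0.57) and Kmo (0.57), which act later on kynurenine, with 0.23 and 0.15 per kb of covered peak. Kmo reached 414 CPM at 96 h from 219 CPM at 0 h, with a log2 ratio of 0.92.

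Of 6 histamine and folate genes, 1, 3 and 2 were lower and 0 were higher at each time, with medians of -0.27, -0.55 and -0.32. Scaled to the median gene or to shared regions, 0 were lower at 48 h and 1 at 72 h, and with at least 3000 counts per nucleus 1 was lower at 72 h. Shmt1, a serine hydroxymethyltransferase that feeds one-carbon units into folate, was lowest at 48 h (-0.63), followed by Hdc, which makes histamine from histidine (-0.31). Mthfd1, which interconverts folate one-carbon units, was highest (0.09), followed by Aldh1l1, a formyltetrahydrofolate dehydrogenase (-0.24). Among 29 genes for breakdown of other amino acids, 4, 13 and 9 were lower and 3, 2 and 2 higher, with medians of -0.15, -0.42 and -0.34. At 48 h there were 1 lower and 4 higher under both of those scalings, for which no background share is given. The alanine transaminase gene Gpt (-1.54) and the glutaminase gene Gls2 (-0.64) were lowest at 48 h, with -0.62 and -0.54 per kb of covered peak. Bckdhb, of the branched-chain dehydrogenase complex, was highest (1.13) but had -0.08 in regions of near-equal length, and Cth, which makes cysteine, was at 0.84 in CPM and 0.86 in such regions.

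Of 9 transcription factor genes known for these targets in liver, 3, 4 and 3 were lower and 1, 0 and 0 higher, with medians of -0.27, -0.50 and -0.32. Lower calls at 48 h were 1 under both scalings and 1 per kb of covered peak, and at 72 h 0 per kb. Foxa1 (-0.85) and Cebpa (-0.64) were lowest at 48 h. The covered length of Foxa1 went from 14383 to 7417 bp, and its log2 ratio per kb was 0.11. Cebpa kept its covered length (15516 and 15738 bp), and its level went from 267 to 171 CPM. Foxa2 was highest at 0.69 with 17142 bp covered at 0 h and 36724 bp at 48 h, and -0.41 per kb. Cebpb was at 0.02.

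Among themselves the members did not follow 1 course. In CPM, Hal went from 438 at 0 h to 236, 249 and 281 at 48, 72 and 96 h. Summed over the window, Ftcd, Hgd and, with the shared peak counted, Amdhd1 were lower at each later time, and Uroc1 from 72 h on. Covered length was lower there as well. The promoter peaks of Ftcd and Uroc1 had 41.4 and 43.9 CPM at 96 h, against 46.5 and 51.5 CPM at 0 h. In summed CPM, Hpd and Tdo2 were lowest at 72 h and Fah stayed within 1.5-fold of 0 h. Tat was above 0 h at each later time, past 1.5-fold at 96 h only. In centred log2 CPM over the 4 libraries, Hal lay nearest to the members' median profile (Euclidean distance 0.27). Amdhd1, with the shared peak counted, lay farthest (1.65), and Hgd came next (1.18). The median profile is made from the members themselves, Hal among them. The 5 other genes nearest to that profile were Pigl (0.12), BC049352 (0.13), Slc39a4 (0.13), Zfand6 (0.13) and Ttc36 (0.13), as a description over 4 points with no test.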

How the data were processed

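The authors made the deposited counts, whole numbers of transposase cut sites per peak and barcode, with Cell Ranger ATAC per the labels, and the matrix headers give software version 1.1.0. The build per the labels is mm10 and no peak ended past a GRCm38 autosome. Peaks were called by library. GENCODE vM21 gene models gave windows of the gene body plus 2 kb upstream, and each overlapping peak was counted whole. Total counts per library were 136949314, 62553202, 25540258 and 15809769 at 0, 48, 72 and 96 h. The 95% intervals are exact Poisson intervals, or for ratios exact binomial (Clopper-Pearson) intervals, on counts divided by 2, since a fragment gives 2 cut sites. A gene was called at 1.5-fold. No doublet caller was run. With 1 library per time there was no paired design and no p-value. Clusters came from TF-IDF, 30 singular components (the first dropped), 30 neighbours and Leiden at resolution 0.5 (Python 3.11.15, scikit-learn 1.9.0, leidenalg 0.10.2, scipy 1.17.1). Window sums and ratios were tested on simulated data. All 9 members are named. From each list the text names the 2 highest and 2 lowest genes at 48 h. Genes beside a member that share its peaks were named after their values were seen. Of the listed genes, 3 are not reported here. Members and lists were chosen with earlier results of these data known. Alternatives changed the nuclei, the scaling, the window, the length correction and binarised counts.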

Additional observations from a re-analysis of the deposited data

How the results depend on the processing

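Of the settings on nuclei, window and scaling, keeping hepatocyte-like nuclei, at least 3000 counts, every barcode, dropping the 5% deepest nuclei or using the gene body alone moved no member's log2 ratio by more than 0.05, and scaling to shared regions by at most 0.11. A window with 5 kb upstream moved a ratio by up to 0.28 and took Hal at 96 h under 1.5-fold (-0.58), the peak share inside the window by up to 2.05 (Amdhd1 at 96 h, -0.68), and the promoter alone by up to 3.28 (Tdo2 at 96 h, -3.30). Tat was above 0 in every setting at each time (14, 14 and 13 settings). Binarised counts, at most 1 per peak and nucleus, limit long peaks in deep nuclei by construction, and gave 12 of 27 log2 ratios the other sign: Hal (0.41, 1.37 and 1.78 at 48, 72 and 96 h), Tdo2 (0.36, 1.08 and 1.77), Hpd (0.022, 0.27 and 0.85), Fah at 48 and 72 h (0.45 and 1.39) and Amdhd1 at 48 h (0.020). Members called under them were 1 higher (background 7.96%) and 0 lower (5.09%) at 48 h. At 72 h they were 4 higher (13.5%) and 0 lower (16.4%), and at 96 h 5 higher (12.9%) and 4 lower (16.8%). Per kb of covered peak, which divides by a shorter covered length, 10 of 27 had the other sign: Uroc1 (0.13, 0.40 and 2.17 at 48, 72 and 96 h), Hgd at 72 and 96 h (0.039 and 1.34), and at 96 h Hal (0.12), Amdhd1 (0.82), Ftcd (1.23), Hpd (0.19) and Tdo2 (0.64). Lower calls were then 2 at 72 h (background 2.06%), and at 96 h there were 7 higher (93.2%) and 0 lower (0.0579%). With a fold of 2, lower calls were 0 at 48 h and 3 at 72 h, and higher calls 0 at 96 h. No background share is given at that fold, so these counts cannot be read against all genes. In regions of near-equal length 1 gene remained at 72 h, with 0 lower calls, and none could be given at 96 h. Scaled to the median gene or to shared regions, Uroc1 at 48 h was at 0.02 or 0.03, and at 96 h Tdo2 was at 0.0051 with at least 3000 counts and 0.12 by the peak share inside the window, and Fah at -0.97 for the promoter alone. Of the members and lists, the members' calls stayed within 1.5 times under both scalings, and the lists' calls that did not are given beside them. With binarised counts the 29 genes for other amino acids had 6, 9 and 10 higher and 1, 4 and 3 lower, and the 9 transcription factor genes 0 lower at each time. The background shares were then 7.96%, 13.5% and 12.9% higher and 5.09%, 16.4% and 16.8% lower. Leaving out the Uroc1 peak on the Zxdc start, a setting chosen after seeing the data, removes the end of the gene at 48 h only, and its log2 ratio of -1.23 compares different parts. No paired analysis was possible because each time had 1 library. Leaving out a replicate was not possible for the same reason.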
